A study of Mus musculus with 2 samples.

Results

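The 10 genes described here, Cd3g, Cd3e, Cd3d, Cd8a, Cd8b1, Cd4, Nkg7, Ccl5, Ccl4 and Ly6c2, are genes of T lymphocytes and in particular of killer T cells, measured in mouse testis. They were taken by symbol from the gene column of both deposited count matrices, where each symbol occurred once, and make up 10 of the 39232 genes listed in either library. The list was drawn up from measured values of these same libraries, namely higher levels in the high-fat library and many Cd8b1 counts outside lymphocytes, so the levels and ratios below are a description and no test is attached to them. A killer T cell reads antigen through a T cell receptor that signals through the CD3 chains, with the CD8 coreceptor holding the antigen-presenting molecule. Helper T cells carry CD4 in place of CD8. Activated killer cells store granules for killing and release chemokines that draw in other leukocytes, and in the testis lymphocytes are few and lie mostly in the tissue between the tubules.

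The data are droplet single-cell RNA sequencing of testes of male C57 BL/6 mice, in 2 libraries, 1 per group. In the study 20 mice, 5 weeks old, were given 1 week to adapt and were then kept for 12 weeks on maintenance feed or on high-fat feed in which fat supplied 60% of the energy, with 10 mice on each. One library is labelled as coming from mice fed the high-fat diet. The other carries a label of its tissue without any diet and is called the unnamed-diet library here. The labels state no number of mice per library and give germ cells as the cell type, although Sertoli-like, Leydig-like, stroma-like and lymphoid-like cells were also found in both libraries. With 1 library per group nothing separates the diet from the mouse, the dissociation or the library, so these cannot be told apart. Intervals are 95% intervals and cover counting error only.

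After filters, 13286 barcodes with 195779981 unique molecular identifiers (UMIs, each standing for 1 captured transcript) were kept in the unnamed-diet library, and 12196 barcodes with 191745405 UMIs in the high-fat library. The deep germ cell clusters split by library, so they were paired across libraries by their profiles. Of the barcode names, 1507 occurred in both libraries, and none of these had the same UMI total in both.

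Lymphoid cells were defined by clustering with the 10 genes left out. The cluster was named T and NK lymphoid-like from 12 other markers, all of which had counts in these cells in both libraries, and a macrophage-like sub-cluster of 10 cells was taken out of it. This left 59 lymphoid cells in the unnamed-diet library (0.444% of its kept barcodes) and 191 in the high-fat library (1.57%), with medians of 1930 and 2437 UMIs per cell. In them, germ cell markers stood at 51.8% and 52.0% of their level in the whole library, and whether this was free RNA or germ cells caught with them was not tested. B cell markers summed to 56 and 14 counts and plasma cell markers to 104 and 4714 counts, mostly in 1 cell of each library, which held 72.3% and 81.5% of the Igkc and Jchain counts. The part of other cells' RNA in the results below was not tested. Without cells rich in B and plasma cell markers, all 10 ratios stayed within their counting intervals, and the number of genes at least 2-fold higher was 7.

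The 3 CD3 genes lie close together on mouse chromosome 9, with the starts of Cd3g and Cd3d 1355 bases apart and pointing away from each other, and the start of Cd3e 27825 bases from that of Cd3d. The 250 bases before each start are shown because these neighbours, whose products sit in 1 receptor complex, differed in where most counts lay. All 3 were seen in lymphoid cells, and Cd3d alone had most of its counts outside them in both libraries. A link between the sequences and the counts was not tested. They are RefSeq sequences of build GRCm38.p6, 5′ to 3′ on the gene's own strand, at chr9:44980432-44980681 (minus strand) for Cd3g, chr9:45009612-45009861 (minus strand) for Cd3e and chr9:44981536-44981785 (plus strand) for Cd3d. Capitals mark matches to any of 5 motifs searched on both strands.
Cd3g: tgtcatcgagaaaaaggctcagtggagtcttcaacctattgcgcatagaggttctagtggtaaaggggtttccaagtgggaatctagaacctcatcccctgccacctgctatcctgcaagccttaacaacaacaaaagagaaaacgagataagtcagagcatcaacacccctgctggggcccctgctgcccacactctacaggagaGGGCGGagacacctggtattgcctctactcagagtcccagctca
Cd3e: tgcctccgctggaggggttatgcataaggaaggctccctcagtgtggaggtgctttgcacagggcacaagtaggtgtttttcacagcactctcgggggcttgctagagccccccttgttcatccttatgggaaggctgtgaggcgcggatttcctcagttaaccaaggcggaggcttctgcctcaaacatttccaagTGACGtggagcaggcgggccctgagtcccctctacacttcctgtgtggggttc
Cd3d: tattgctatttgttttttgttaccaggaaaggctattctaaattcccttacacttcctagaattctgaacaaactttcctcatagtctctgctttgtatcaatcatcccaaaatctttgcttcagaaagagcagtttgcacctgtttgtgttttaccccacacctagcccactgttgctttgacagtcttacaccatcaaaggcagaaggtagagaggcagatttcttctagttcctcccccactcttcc
The motifs searched were the half-site of the CREB and CREM factors with letters TGACG, the RUNX core with letters TGTGGT, the CCAAT box, the GC box with letters GGGCGG, and the TATA box with letters TATAAA, none of which contains another. Cd3g held 1 GC box, found in 32.7% of all 32851 promoter windows of this length, and Cd3e held 1 CREB half-site, found in 17.8%. Cd3d held none of the 5, and the RUNX core, the CCAAT box and the TATA box, found in 14.0%, 33.8% and 12.4% of windows, were in none of the 3. The Cd3d window had no CG pair and 41.2% G and C, against 4 CG pairs and 51.6% for Cd3g, 7 and 57.2% for Cd3e, and medians of 6 and 52.4% over all windows. Cd8a, Nkg7 and Ly6c2 were also in the promoter table, and Cd8b1, Cd4, Ccl5 and Ccl4 were not.

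Over all kept barcodes, 9 of the 10 genes were at least 2-fold higher in the high-fat library and none was 2-fold lower, all 10 having at least 20 counts over both libraries. Of all 27007 genes with that many counts, 11.4% were at least 2-fold higher and 8.01% at least 2-fold lower, and since the genes were chosen on this contrast nothing is read from their count. Their median log2 ratio was 2.22, against 0.11 for all genes. Cd3d was the exception, with 5291 and 5922 counts and a ratio of 1.14 per UMI. The other genes had ratios from 2.48 for Cd3g (202 and 491 counts) to 7.39 for Ly6c2 (150 and 1085 counts). In a whole-library sum, more cells of a type and more RNA per cell cannot be told apart.

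In lymphoid cells the genes were read as CPM, their summed counts scaled to 1000000 UMIs of those cells. Again 9 of 10 were at least 2-fold higher in the high-fat library and none 2-fold lower, against 16.3% and 13.4% of the 5577 genes with at least 20 counts there, and the median log2 ratio was 1.88 against -0.07. How many of the 9 stood at 2-fold or more hung on which cells were counted. In the 1 sub-cluster that took the T and NK lymphoid name on its own (17 and 174 cells), 2 did, Cd8b1 and Ly6c2. In barcodes rich in T and NK marker UMIs (37 and 170), 4 did, Cd8a, Cd8b1, Ccl4 and Ly6c2. Cd8b1 and Ly6c2 were thus the genes that passed 2-fold under each of these 3 choices. With doublets kept 6 did, and with each cell weighted equally 7 did.

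**Figure D1:**
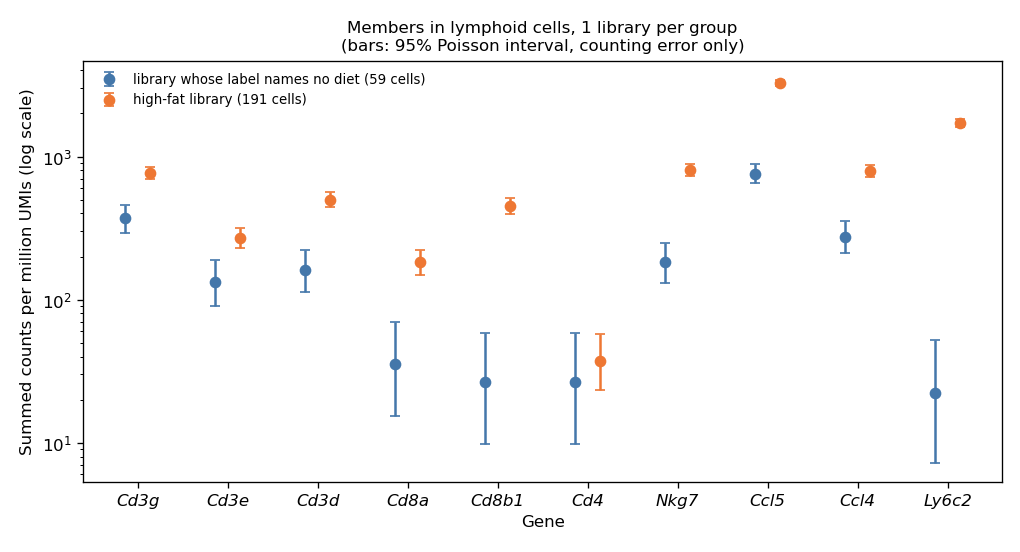
Level of each gene in lymphoid cells, in CPM on a log axis, in the unnamed-diet library (blue, 59 cells) and the high-fat library (orange, 191 cells), with 95% Poisson intervals of counting error. The intervals of Cd4 overlap, and those of the other 9 genes do not.

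Cd3g, the gamma chain of CD3, had 83 counts in the unnamed-diet library's lymphoid cells (369 CPM, interval 294 to 457) and 430 in the high-fat library's (766 CPM, 696 to 842). It was seen in 39 of 59 and 154 of 191 cells (66.1% and 80.6%), against 0.384% and 0.0785% of Sertoli cells, which should lack it and had medians of 1350 and 1533 UMIs. Cd3e, the epsilon chain, had 30 and 152 counts, or 133 and 271 CPM. Cd3d, the delta chain, had 36 and 280 counts, or 160.1 and 499 CPM, in 27 and 134 cells (45.8% and 70.2%), against 4.22% and 3.61% of Sertoli cells. All 3 chains stood higher in the high-fat library's lymphoid cells, with ratios of 2.08 (1.64 to 2.66) for Cd3g, 2.03 (1.37 to 3.11) for Cd3e and 3.12 (2.20 to 4.54) for Cd3d. Within the named sub-cluster the log2 ratios were -0.23, -0.56 and 0.27, with overlapping intervals of the levels, so no difference could be seen there. With doublets kept the log2 ratios of Cd3g and Cd3e were 0.60 and 0.59, and with each cell weighted equally 0.42 and 0.37, all below 2-fold. The other sub-cluster that supplied most cells of the unnamed-diet library (38 of 59, led by S100a4, Cd52 and Cd69 and left without a name) held only 8 high-fat cells, and in it Cd3g was at 275 CPM in the unnamed-diet library and 962 in the high-fat library. In the named sub-cluster Cd3g was at 875 and 747 CPM.

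The CD8 coreceptor is a pair of chains, alpha from Cd8a and beta from Cd8b1. Cd8a had 8 counts in 4 of 59 cells of the unnamed-diet library, with 4 of the counts in 1 cell, and 102 counts in 63 of 191 cells of the high-fat library. This was 35.6 and 182 CPM, a ratio of 5.11 (2.50 to 12.2). In the named sub-cluster the log2 ratio of Cd8a was 0.38, where the unnamed-diet library had 4 counts, all in 1 cell. Cd8b1 had 6 counts in 4 cells, 3 of them in 1 cell, and 254 counts in 100 cells, or 26.7 CPM (9.79 to 58.1) and 453 CPM (399 to 512). Its ratio was 17.0 (7.69 to 46.7), a log2 ratio of 4.08. In cells of at least 2000 UMIs the log2 ratio was 6.24. The 4 unnamed-diet cells with Cd8b1 had a median of 1461 UMIs, so that cut takes away some of the few counts below the line. The shares of cells with a count were 6.78% and 52.4%, against 0.128% and 0.314% of Sertoli cells. After each cell was thinned to 1000 UMIs the shares were 3.39% and 36.6%. In the named sub-cluster Cd8b1 had 1 count in the unnamed-diet library and 235 in the high-fat library. Over the 3 sub-clusters the unnamed-diet library had 4, 1 and 1 Cd8b1 counts, the last in 4 cells and equal to 85.2 CPM with an interval of 2.16 to 475, so its level there is hardly known.

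Cd4, the helper T cell coreceptor that also occurs on some macrophages, had 6 counts in 4 cells and 21 counts in 17 cells. Its ratio of 1.40 had an interval of 0.548 to 4.25, so no difference could be seen at this depth. The shares of lymphoid cells with Cd4 were 6.78% and 8.90%.

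Nkg7, a protein of the membrane of cytotoxic granules, had 41 counts in 21 cells and 452 counts in 148 cells, a ratio of 4.42 (3.21 to 6.24). Ccl5, a chemokine released by activated killer cells, had 171 counts in 20 cells and 1843 counts in 165 cells, a ratio of 4.32 (3.69 to 5.08). Ccl4, a chemokine that shares receptors with Ccl5, had 62 counts in 14 cells and 444 counts in 83 cells, a ratio of 2.87 (2.20 to 3.81). All 3 were higher in the high-fat library's lymphoid cells as a whole. In the named sub-cluster the log2 ratios were 0.88 for Nkg7, 0.50 for Ccl5 and -0.20 for Ccl4. The intervals of the levels overlapped there for Nkg7 (252 to 810 and 793 to 962 CPM) and for Ccl4, and not for Ccl5. With doublets kept the log2 ratio of Ccl4 in lymphoid cells was 0.95. In the macrophage-like sub-cluster, whose 10 cells were all in the high-fat library, Ccl4 had 40 counts in 7 cells and Ly6c2 had 1 count, and Cd3g, Cd3e, Cd3d, Cd8a, Cd8b1, Cd4, Nkg7 and Ccl5 were at 0 counts. A count of 0 in 10 cells is a weak limit.

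Ly6c2, a surface protein of the Ly6 family carried by memory-type killer T cells and by monocytes, differed most between the libraries. It had 5 counts in 4 of 59 lymphoid cells of the unnamed-diet library and 965 counts in 143 of 191 lymphoid cells of the high-fat library. The ratio of CPM was 77.4 (33.0 to 239). The shares of cells with a count were 6.78% and 74.9%, and the high-fat counts were spread out, with 6.22% of them in the richest cell. In the sub-clusters the unnamed-diet library had 3, 1 and 1 counts, and the high-fat library had 17, 890 and 58. Of the 5 monocyte and neutrophil markers, S100a8, S100a9 and Csf3r were at 0 counts in the lymphoid cells of both libraries. The other 2, Plac8 and Ccr2, summed to 21 and 127 counts (93.4 and 226 CPM), higher in the high-fat library as Ly6c2 was. Ccr2 alone had 9 and 29 counts, a ratio of 1.29 (0.595 to 3.10), so no difference could be seen for it. The part of monocytes and neutrophils in the Ly6c2 result was not tested. The neighbour Ly6c1, whose sequence is close enough that reads may be shared, had 0 and 5 counts there.

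**Figure D2:**
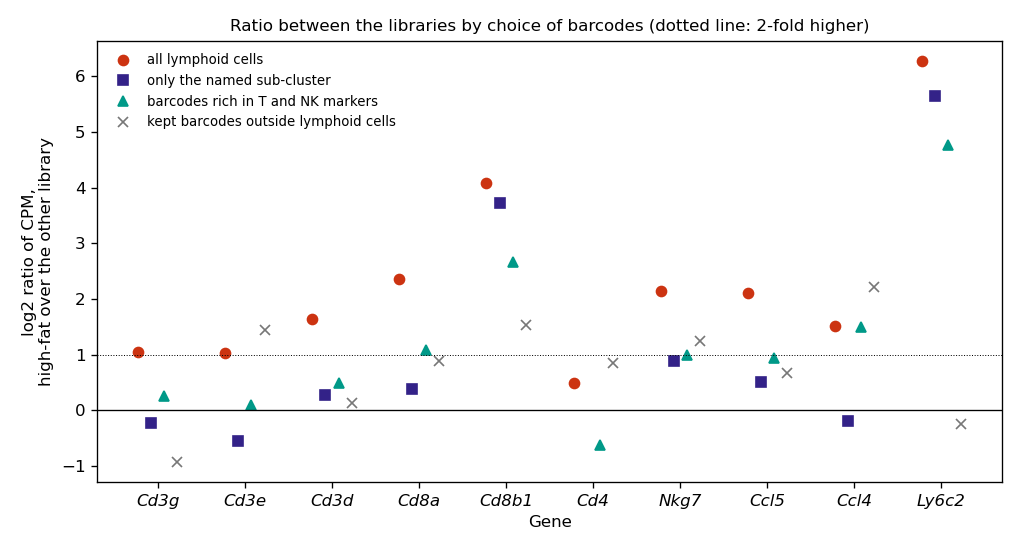
Log2 ratio of CPM, high-fat library over unnamed-diet library, for each gene in all lymphoid cells, in the named sub-cluster, in barcodes rich in T and NK markers and in kept barcodes outside lymphoid cells. Cd8b1 and Ly6c2 stand above the dotted 2-fold line for all 3 choices of lymphoid cells, and Cd4 has no point in the named sub-cluster because it had 0 counts there in the unnamed-diet library.

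Single lymphoid cells often held several of the genes at once. At least 1 CD3 gene was seen in 48 of 59 and 181 of 191 lymphoid cells (81.4% and 94.8%). At least 1 CD8 chain was seen in 6 of 59 (10.2%, interval 3.82 to 20.8) and in 106 of 191 (55.5%, 48.1 to 62.7). CD3 with neither CD8 nor Cd4 made up 67.8% of the unnamed-diet library's lymphoid cells and 33.0% of the high-fat library's, a class that also takes in cells whose coreceptor was not captured. Cd4 without CD8 made up 6.78% and 7.85%. Among cells with Cd3g or Cd3e alone as the criterion, 4 of 42 and 98 of 174 had a CD8 chain, 3 of 42 and 131 of 174 had Ly6c2, and 4 of 42 and 16 of 174 had Cd4. The higher CD8 and Ly6c2 shares of the high-fat library thus held among cells with either of these CD3 genes, at median depths that differed as given above.

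In the high-fat library 57 of the 63 lymphoid cells with Cd8a also had Cd8b1. All 106 cells with a CD8 chain had Ccl5, 100 had Nkg7, 89 had Ly6c2 and 72 had Ccl4. Over all 191 lymphoid cells the numbers were 165, 148, 143 and 83 in the same order (86.4%, 77.5%, 74.9% and 43.5%). Of the 17 cells with Cd4, 16 had Ccl5, 13 had Nkg7, 10 had Ly6c2 and 2 had Ccl4, and 2 had a CD8 chain. In the unnamed-diet library the 6 cells with a CD8 chain had Ccl5 in 5, Nkg7 in 5, Ccl4 in 4 and Ly6c2 in 2, and the 4 cells with Cd4 had none of these 4 genes. Over all 59 lymphoid cells 20 had Ccl5, 21 had Nkg7, 14 had Ccl4 and 4 had Ly6c2. A median of 3 of the 10 genes was seen per lymphoid cell in the unnamed-diet library and 6 in the high-fat library, and 5 or more were seen in 11 of 59 and 146 of 191 cells.

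Most counts of some of these genes lay elsewhere. Lymphoid cells held 0.115% and 0.293% of all UMIs. They held 41.1% and 87.6% of the Cd3g counts, 53.6% and 68.8% of Cd3e, 44.4% and 85.0% of Cd8a, 42.9% and 60.0% of Cd4, 48.8% and 81.9% of Nkg7, 33.0% and 77.4% of Ccl5, and 69.7% and 78.3% of Ccl4. Cd3d departed from them in both libraries, with 0.680% and 4.73% of its counts in lymphoid cells. Cd8b1 had 4.38% and 40.7% of its counts there, and Ly6c2 3.33% and 88.9%. The name killer T cell genes therefore goes against the place of most counts for Cd3d and Cd8b1 in both libraries. In the unnamed-diet library it also does so for Ly6c2, Cd3g, Cd8a, Cd4, Nkg7 and Ccl5, with only 18 and 14 counts for Cd8a and Cd4. Only Cd3e and Ccl4 had most of their counts in lymphoid cells there. These shares hang on depth. After thinning to 1000 UMIs, lymphoid cells of the unnamed-diet library held 73.1% of Cd3g, 83.3% of Cd4, 69.0% of Nkg7 and 57.1% of Ccl5. The shares of Cd3d, Cd8b1, Ly6c2 and Cd8a there were 4.55%, 20%, 30% and 44.4%. In the high-fat library they were 27.7% for Cd3d and 78.2% for Cd8b1. By CPM the lymphoid cluster stood first for each gene in both libraries, among clusters of at least 20 cells. Its lead was narrow for Cd3d in the unnamed-diet library.

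**Figure D3:**
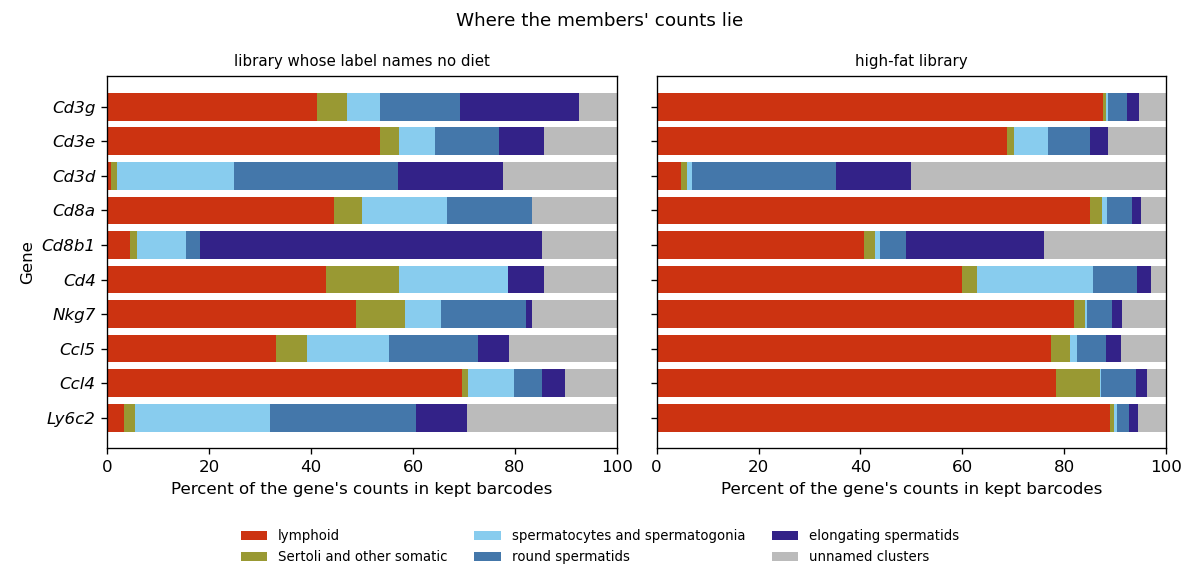
Percent of each gene's counts in kept barcodes that lay in lymphoid cells, other somatic cells, germ cell classes and clusters without a name, per library. Cd3d and Cd8b1 have most of their counts outside lymphoid cells in both libraries; the cluster paired with the unnamed-diet library's late spermatocytes had no name in the high-fat library, so the grey share is larger there.

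Outside lymphoid cells Cd3d had 5255 counts in 3568 barcodes of the unnamed-diet library and 5642 counts in 3437 barcodes of the high-fat library, at 26.9 and 29.5 CPM. It had counts in every cluster of at least 20 cells in each library. It was low in early spermatocyte-like cells, led by Prss50 and Dmc1, at 7.92 CPM (2.91 to 17.2) and 10.8 CPM (6.02 to 17.7), and 3 clusters of 42 to 63 high-fat cells had lower levels from 1 to 3 counts each. Spermatogonia-like cells had 13.2 and 13.9 CPM and Sertoli cells 20.1 and 18.4 CPM. The highest were in the elongating spermatid-like cells led by Prm1 and Prm2, the protamines that pack sperm DNA, at 158 CPM (132 to 189) in 142 cells and 106 CPM (91.3 to 123) in 226 cells. In the unnamed-diet library that was the level of the lymphoid cells (160.1 CPM), whereas in the high-fat library the lymphoid cells stood at 499 CPM. Cd3d was seen in 43.7% and 39.8% of these spermatid-like cells, at medians of 3339 and 4090 UMIs, and after thinning to 1000 UMIs in 14.8% and 7.52%, against 1.92% and 1.96% of Sertoli cells. Single barcodes outside lymphoid cells held up to 10 and 13 Cd3d counts.

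Between the libraries Cd3d differed in opposite directions along the germ line. In the pair of clusters led by Nkx2-4, late spermatocyte-like in the unnamed-diet library, it was at 22.8 and 33.4 CPM, a ratio of 1.46 (1.36 to 1.57). In the pair of round spermatid-like clusters led by Tssk5 and Gm33308 it was at 29.6 and 28.6 CPM. In the elongating spermatid-like pair led by Cst13 it was at 38.3 and 22.5 CPM, a ratio of 0.588 (0.533 to 0.649), and in the Prm1-led cells the ratio was 0.671 (0.530 to 0.850). The Cst13-led clusters took the elongating name by mean fold, with 0 listed markers among their top 10 genes. Their medians over both libraries were 15158 and 18569 UMIs, against 3748.5 in the Prm1-led cluster, so their stage is less certain. Cd3d was thus higher in the high-fat library in the late spermatocyte-like pair and lower in the Cst13-led and Prm1-led pairs, beyond counting error. The difference between these ratios was not tested across mice.

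The ratio of Cd3d to Cd3g counts was 0.434 and 0.651 in lymphoid cells, and 44.2 (36.8 to 53.4) and 92.5 (71.9 to 121) outside them. Of the 109 and 59 barcodes outside lymphoid cells with Cd3g, 1 and 0 also had Cd3e, against 20 of 39 and 78 of 154 lymphoid cells with Cd3g. Cd3e was seen in 0.197% and 0.558% of all barcodes outside lymphoid cells, against 39.0% and 51.3% of lymphoid cells. Few joint barcodes could thus be found outside whatever the cells, and nothing is read from this contrast. In GENCODE M21 no other gene overlaps Cd3d, Cd3g or any other of the 10 genes except Cd3e, which Gm48719 and Gm48720 overlap with at most 8 counts in a library.

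Cd8b1 outside lymphoid cells had 131 counts in 115 barcodes of the unnamed-diet library and 370 counts in 300 barcodes of the high-fat library, or 0.670 and 1.94 CPM, a ratio of 2.89 (2.36 to 3.55). Of these, 87 and 160 counts lay in the Cst13-led elongating spermatid-like pair, at 3.44 CPM (2.75 to 4.24) and 5.16 CPM (4.39 to 6.02). Those cells made up 63.5% and 25.6% of all Cd8b1 counts, and 74 of 1369 and 111 of 1372 barcodes had 1 or more (5.41% and 8.09%, at medians of 15166 and 18723 UMIs). After thinning, 0.292% and 0.437% of them had Cd8b1, against 0.128% and 0.157% of Sertoli cells. The pair led by Gm26939, which took no class name, had 6.61 and 7.26 CPM from 12 and 18 counts, and the Prm1-led cells 6.49 and 4.67 CPM from 5 and 8 counts. These 3 pairs had the highest Cd8b1 levels outside lymphoid cells among the matched pairs in the unnamed-diet library. In the high-fat library stromal cells stood above them at 9.44 CPM from 6 counts, 5 of them in 1 barcode. The ratio between the libraries had an interval of 1.15 to 1.97 in the Cst13-led pair, and the intervals of the other 2 pairs held 1.

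Other germ cells varied in this ratio. In the Nkx2-4-led pair Cd8b1 had 9 counts (0.176 CPM, 0.0803 to 0.333) and 89 counts (1.42 CPM, 1.14 to 1.75), a ratio of 8.10 (4.08 to 18.3). In the unnamed pair led by 4933412L11Rik and Gm49794 it had 4 and 36 counts, a ratio of 8.44 (3.02 to 32.6), and in the round spermatid-like pair led by Tssk5 and Gm33308 4 and 17 counts, a ratio of 3.24 (1.06 to 13.2). Spermatogonia-like cells had 4 and 7 counts, a ratio of 1.38 (0.350 to 6.42), and early spermatocyte-like cells had 0 counts in both libraries. Sertoli cells had 0.528 and 2.25 CPM from 1 and 6 counts, with intervals that hold the levels of the Nkx2-4-led cells. Cd8b1 was seen in 3.13% of the latter in the high-fat library at a median of 19601 UMIs and in 0.314% of Sertoli cells at 1533. The part of free RNA in these low levels was not tested.

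**Figure D4:**
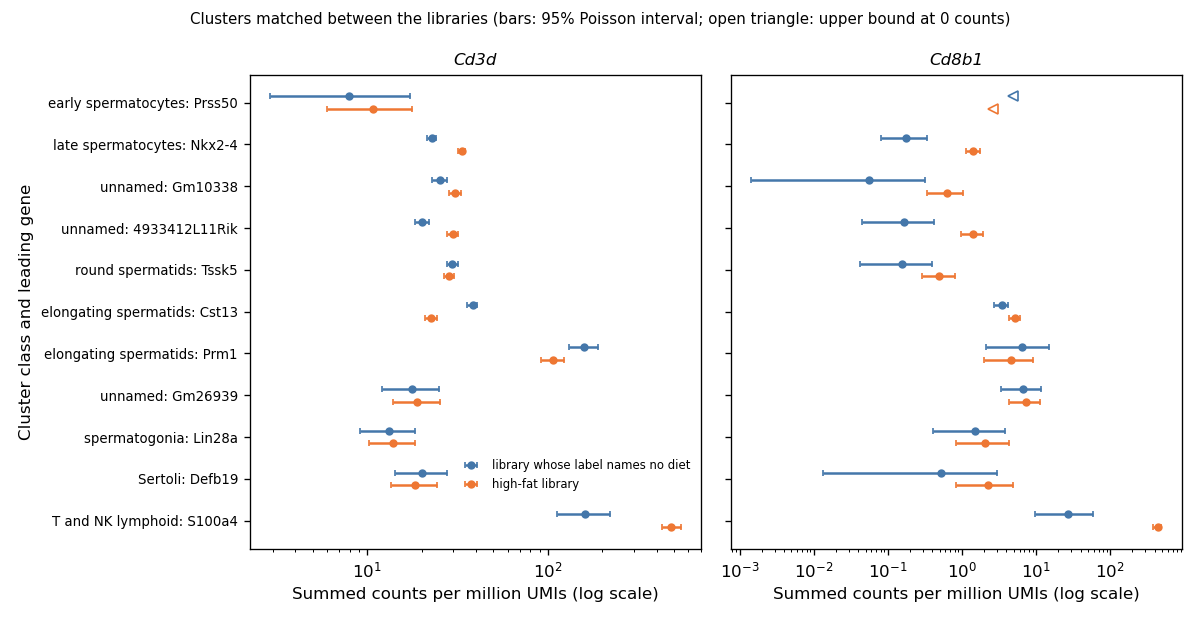
Level of Cd3d (left) and Cd8b1 (right) in clusters paired between the libraries, in CPM on log axes with 95% Poisson intervals, labelled by the class and leading gene of the unnamed-diet library's cluster. Cd3d peaks in lymphoid cells and Prm1-led spermatid-like cells. Cd8b1 in the Nkx2-4-led pair is at 0.176 and 1.42 CPM. The lymphoid row is the whole cluster with the 10 macrophage-like cells, so the high-fat levels there are 483 CPM for Cd3d and 438 CPM for Cd8b1.

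The alpha chain did not go with the beta chain there. Cd8a had 10 and 18 counts outside lymphoid cells, so that Cd8b1 to Cd8a stood at 13.1 (6.90 to 28.0) and 20.6 (12.8 to 35.1), against 0.75 (0.214 to 2.46) and 2.49 (1.97 to 3.17) in lymphoid cells. Of the 115 and 300 barcodes outside lymphoid cells with Cd8b1, 3 and 10 had Cd3g or Cd3e, and in lymphoid cells 3 of 4 and 93 of 100 did. Over all barcodes outside lymphoid cells Cd3g was seen in 0.824% and 0.491% and Cd3e in 0.197% and 0.558%, so few joint barcodes could be found there. In lymphoid cells 42 of 59 and 174 of 191 had either gene. Over the 13 germ cell units (a cluster in 1 library, of at least 20 cells), the genes with a profile closest to Cd8b1 were 1700119H24Rik (Pearson r 0.978), Slc25a37, a carrier of iron into mitochondria (0.971), and Gm46658 (0.964), where r is over log2(CPM + 1) and units of 1 library share their depth.

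The other genes were thin outside lymphoid cells. Cd3g had 119 and 61 counts there (0.609 and 0.319 CPM), the reverse of its order in lymphoid cells, with 46 and 12 of them in the Cst13-led pair (ratio 0.213, interval 0.103 to 0.408). Cd3e had 26 and 69 counts, and its highest level there in the high-fat library was in early spermatocyte-like cells with 10 counts (7.17 CPM, 3.44 to 13.2), where the unnamed-diet library had 2. Cd4 had 8 and 14 counts, 7 of the latter in 1 barcode. Nkg7 had 43 and 100 counts and Ccl4 27 and 123. Ccl5 had 347 counts in 275 barcodes and 537 in 393, or 1.77 and 2.81 CPM, and 36 of the high-fat library's 64 counts in Sertoli cells came from 1 barcode. Ly6c2 had 145 counts in 136 barcodes and 120 in 106, or 0.741 and 0.628 CPM, with a ratio of 0.847 (0.659 to 1.09), so no difference could be seen for it over all those barcodes. In the Nkx2-4-led and Tssk5-led pairs it was lower in the high-fat library, with ratios of 0.588 (0.348 to 0.980) and 0.509 (0.252 to 0.998). At least 2 of the 10 genes other than Cd3d were seen together in 36 and 81 barcodes outside lymphoid cells (0.272% and 0.675%), and 4 or more in 0 and 5.

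Over 36 units the mean profile of the CD3 genes was closest to those of Cxcr6, a homing receptor of tissue T cells (r 0.959), Ccl3, a chemokine (0.956), and Cd69, an early activation marker (0.956). Cd8b1 was closest to Ptprc, the common leukocyte antigen (0.878), Ms4a6b (0.870) and Gimap3 (0.829). Cd4 was closest to Ccl3 (0.960), Il7r, a receptor of resting T cells (0.957), and Ighm, the IgM heavy chain (0.955). Ly6c2 was closest to Thy1, a T cell surface protein (0.912), C1qc (0.865) and Tnfrsf18 (0.862). The units were whole clusters, so the high-fat lymphoid unit still held the 10 macrophage-like cells, which had C1qc among their top genes. Cd3d, added after its values were seen, was closest to Rac2 (0.806), Kcnk7 (0.786) and Cd8b1 (0.765).

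Other genes of the same pathways were read in the lymphoid cells, each list by its genes with at least 20 counts over both libraries. The high-fat library's lymphoid cells held 561063 UMIs against 224910, so a gene high in that library reaches this minimum more readily. Nothing is read from the numbers of genes at least 2-fold higher. The list ratios are over all lymphoid cells and were not taken in the named sub-cluster. There only Cd8b1 and Ly6c2 of the 10 genes were at least 2-fold higher. Of 16 T cell receptor and signalling genes, 11 were at least 2-fold higher in the high-fat library and none lower, with a median log2 ratio of 1.27, against 16.3% of all genes tested there and a median of -0.07. Trbc2, a receptor constant chain, had 70 and 488 counts (ratio 2.79), the adhesion molecule Cd2 26 and 201 (3.10), the costimulator Cd28 6 and 74 (4.94) and Thy1 41 and 279 (2.73). Of 10 killing genes, 6 were 2-fold higher and 1 lower (median 1.16). Ifng, the macrophage-activating cytokine of killer cells, had 35 and 193 counts (2.21), and Tbx21, the factor that drives it, 1 and 31, a ratio of 12.4 with an interval of 2.07 to 506. Id2 had 71 and 275 counts (1.55). The granzyme Gzma was the 1 lower, with 28 counts in 4 cells and 6 counts in 1 cell.

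Of 4 killer lectin-like and natural killer receptor genes, 3 were 2-fold higher (median 1.39): Klrk1 with 8 and 51 counts, Klrc1 with 1 and 23, and Cd160 with 0 and 20. For Cd160 the ratio was 2.67 when its 0 counts were replaced by a floor of 3 counts over the lymphoid cells. The lower end of its interval was 1.98, just under 2-fold. Klrc1 and Cd160 reached the minimum only through the high-fat library. Of the genes under it, Klra3 had 6 and 0 counts, Ncr1 2 and 0, Klrg1 1 and 1, Klrb1c 0 and 3, and Klre1 0 and 1. Klra4, Klra8 and Cd244a had 0 in both. Of 10 homing and chemokine genes, 2 were 2-fold higher, Cxcr3 with 6 and 42 counts and Itgal with 4 and 22, and 1 was lower (median 0.67). The lower one, singled out after its values were seen, was Itgae, the integrin that holds T cells in epithelia, with 57 counts in 20 cells and 67 counts in 47 cells, a ratio of 0.471 (0.326 to 0.683). Lymphoid cells held only 0.101% and 0.104% of its 56539 and 64363 counts, and the part of other cells' RNA in this value was not tested. Nor was it tested for the higher genes, some of which also lay mostly elsewhere. Lymphoid cells held 5.14% and 25.2% of Trbc2 counts, 6.13% and 42.9% of Cd2, 0% and 3.92% of Cd160 and 0.183% and 30.6% of Itgal. They held 61.5% and 89.5% of Klrk1 and 76.1% and 91.9% of Ifng. Xcl1 had 42 and 198 counts (1.89) and Cd69 49 and 170 (1.39).

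None of 4 helper and regulatory T cell genes passed 2-fold in either direction (median 0.63). Cd40lg had 9 and 29 counts, Icos 12 and 50, and Gata3 4 and 18. The same was true of the 2 of 5 gamma delta T cell genes with at least 20 counts, Trdc with 19 and 35 counts (ratio 0.738, 0.411 to 1.37) and Tcrg-C1 with 6 and 16. Tcrg-C4, under that minimum and singled out after its values were seen, had 14 counts in 7 cells and 1 count. No checkpoint receptor gene had 20 counts; Pdcd1 had 5 and 2 and Tox 1 and 13. Both Ly6 family genes with enough counts were higher, Ly6a with 45 and 237 counts (2.11) and Ly6e with 41 and 399 (3.90).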

How the data were processed

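Per the file headers, the deposited matrices were written by PISA 1.0 and hold UMI counts per gene and barcode, not normalised. Cell Ranger 2.1.1 is named in the submitters' processing notes, and for the aligner, build and annotation the answer is "not given in the sources used here". Barcodes needed at least 500 UMIs, 250 genes and at most 20% mitochondrial UMIs (2 and 3 failed), and doublets (517 and 462) were called with scanpy 1.11.5's Scrublet, set to expect 6%, and left out. Both libraries were clustered together on 2000 variable genes without the 10 members, 50 components, 20 neighbours and Leiden resolution 1 (igraph 0.11.9), giving 23 clusters. The immune cluster was clustered again on 1000 genes at 0.5. Clusters were named from marker lists by their top 10 genes by fold within a library, otherwise by a mean log2 fold of at least 1 over at least 3 detected markers. Names mean "like" and were rebuilt, since no deposited annotation was used. The named-cluster thresholds were set after clusters had been seen.

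Counts were summed per library and class as CPM. Levels have exact Poisson intervals, shares exact Clopper-Pearson intervals and ratios exact conditional binomial intervals, at 95%, and cover counting error only. The ratio interval was run on simulated Poisson counts, for which it is exact. That run cannot speak to counts clumped in single cells, and nothing is read from it. With 1 library per group no test was possible. Cells were thinned to 1000 UMIs for shares. All members were named, with, per list, the 2 genes of most counts and the 2 of largest ratio in lymphoid cells (at least 20 counts), and the 3 closest profiles (genes of at least 50 counts). Members and lists were chosen with earlier results of these data known. Alternatives changed the clustering, doublets, depth, weighting and choice of lymphoid barcodes. Calculations ran under pandas 2.3.3, scipy 1.17.1 and numpy 2.4.6 in Python 3.11.15.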

Additional observations from a re-analysis of the deposited data

Results flagged for a closer look

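Cd3g was flagged because it stood higher in the high-fat library in lymphoid cells and lower in that library outside them, with log2 ratios of 1.05 and -0.93. That difference was not tested, since each group has 1 library.

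Barcodes called doublets, which the comparisons leave out, were flagged for 6 genes whose counts there were higher in the high-fat library than in the other. Cd3g had 61 counts there against 5, in 26 and 5 barcodes. Cd3e had 22 against 1. Cd8b1 had 38 against 11, in 23 and 9 barcodes. Nkg7 had 60 against 2, Ccl5 193 against 16 and Ly6c2 96 against 5. The libraries had 462 and 517 such barcodes.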

How the results depend on the processing

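No paired analysis was possible because each group has 1 library. Over all kept barcodes the 9 genes at least 2-fold higher stayed at 9 under each alternative run, and 48 of 50 single ratios moved within their counting error, Cd3d reaching a log2 ratio of 0.29 per 10000 barcodes. In lymphoid cells 74 of 110 ratios did so, 32 moved further and 4 reversed. The reversed ones were Cd3g (-0.23), Cd3e (-0.56) and Ccl4 (-0.20) in the named sub-cluster, and Cd3d (-0.041) in barcodes with at least 3 T and NK marker UMIs, most of which were deep germ cells. The number of genes at least 2-fold higher was 2 in the named sub-cluster, 4 in barcodes whose markers made up at least 0.1% of UMIs, 6 with doublets kept, 7 with each cell weighted equally, 7 without cells rich in B and plasma cell markers, and 8 to 10 under the others. The log2 ratio of Cd3d was 1.09 with each cell weighted equally, 0.50 in the marker-rich barcodes and 0.27 in the named sub-cluster. That of Cd8b1 was 2.31 by marker counts, 6.24 in cells of at least 2000 UMIs and 2.66 in the marker-rich barcodes. The cut at 2000 UMIs lies above the median of 1461 UMIs of the unnamed-diet lymphoid cells with Cd8b1. The share of Cd3d counts in lymphoid cells was 12.0% and 22.7% by marker counts, 4.55% and 27.7% after thinning, and 5.30% in the high-fat library with doublets kept. That of Cd8b1 was 21.2% and 50.2% by marker counts and 20% and 78.2% after thinning. Thinning counts shallow cells for more; the cause of the other shifts was not tested. The sub-cluster, marker-rich, whole immune cluster, all-barcode and B and plasma cell settings were chosen after seeing the data. Depth limits Cd8a, Cd8b1, Cd4 and Ly6c2 in the unnamed-diet library, with 5 to 8 counts each in its 59 lymphoid cells.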
